A study of Drosophila melanogaster with 3 samples.

Results

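The genes described here encode the enzymes of the glycolytic chain from glucose-6-phosphate to pyruvate in Drosophila melanogaster. They are Pgi, Pfk, Ald1, Tpi, Gapdh2, Gapdh1, Pgk, Pglym78, Eno and Pyk, 10 of the 13945 protein-coding genes of the annotation, and they were chosen by name. Each was searched for chromatin immunoprecipitation (ChIP-seq) peaks whose summit lay between 2000 bp before the gene start and 2000 bp past its end, here called the gene window. The material was whole embryos aged 0 to 24 hours from a fly strain with a transgene for CG11695, a zinc finger protein, fused to enhanced green fluorescent protein (eGFP). Chromatin was sonicated, fragments of 200 to 800 bp were kept, and the fusion protein was precipitated through its GFP tag. There were 3 biological replicates of this 1 group, and neither an input nor a mock library was used here. A site recovered in any precipitation can therefore not be told apart from a site bound by the fusion protein. The embryos mix all tissues and a full day of development, so a weak site in many cells and a strong site in few cells cannot be told apart either. The peaks came as lists, and the read depth behind them is unknown.

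Glycolysis splits glucose into pyruvate and yields ATP and NADH. In its first steps the sugar phosphates are rearranged, phosphorylated and cut into triose phosphates, and in its later steps the trioses are oxidised and ATP is made. In the fly embryo the nuclear receptor ERR is known to switch on many of these genes together midway through development, which prepares the animal for larval growth.

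In the main list, the authors' conservative thresholded list of 4770 peaks, Gapdh2, Pgk, Pglym78, Eno and Pyk had a summit in their gene window. That is 5 of the 10 genes, with 6 peaks between them, against 32.1% of all protein-coding genes. Among the 6861 protein-coding genes no shorter and no longer than these 10, 31.8% had such a summit. Summits within 500 bp of an annotated transcription start site (TSS) of the gene itself were counted as promoter peaks. Gapdh2, Pgk, Eno and Pyk had one, so 4 of the 10 genes had a promoter peak, against 16.2% of all protein-coding genes. No test is attached to these shares, because the genes were chosen with earlier results of these data known and a list of 10 allows steps of 10 percentage points only. Of the 4 genes of the first steps (Pgi, Pfk, Ald1 and Tpi), 0 had a summit in the main list, and of the 6 genes from the GAPDH step onwards, 5 did. These 5 include Pglym78, whose summit lay at the start of its neighbour eIF2D. In the longer pooled thresholded list the counts were 3 of 4 and 5 of 6, against 37.3% of all protein-coding genes. The contrast thus holds for the main list and is small in the pooled one. The main list compared the ranks of replicates 1 and 3. In the lists of the other pairs, Pgi had a summit with replicates 1 and 2, and Ald1 with replicates 2 and 3.

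Each replicate also had its own thresholded list. Replicate 1 placed a summit in the windows of 6 of the 10 genes, against 25.8% of all protein-coding genes. Replicate 2 did so for 5 of the 10, against 22.1%, and replicate 3 for 5 of the 10, against 22.2%. The mean over replicates was 5.33 ± 0.577 genes (SD, n = 3). Only Gapdh2, Pgk and Eno, 3 of the 10, had a promoter peak in all 3 own lists, against 7.21% of all protein-coding genes. Pgi, Ald1, Pglym78 and Pyk had a summit in the own lists of 1 or 2 replicates, and Gapdh1, Pfk and Tpi had one in no replicate's own list. The signal of a peak is the authors' own value on a scale that was not stated, and it was used to describe and rank peaks within a list. The lists differ in length and range, with a median signal of 120 in the main list and of 60.9, 57.2 and 53.1 in the own lists of replicates 1, 2 and 3.

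**Figure D1:**
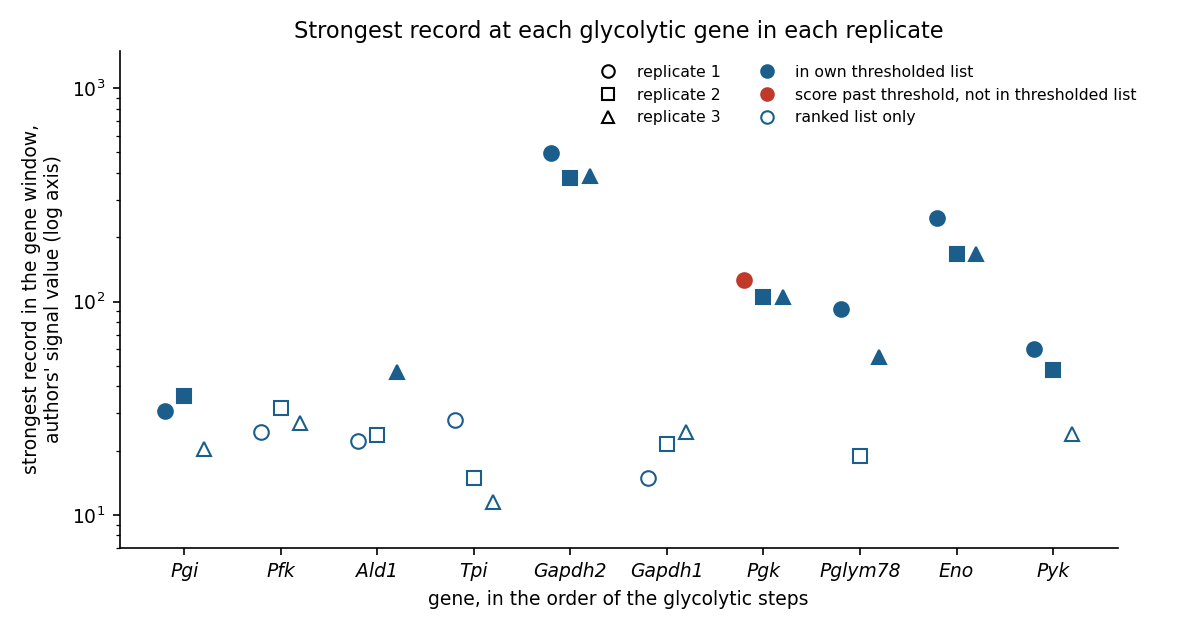
Strongest record in the gene window of each glycolytic gene (y axis, authors' signal value on a log axis) in the ranked list of each replicate (marker shape), with genes in pathway order on the x axis and fill showing whether the record was in that replicate's thresholded list. Gapdh2 stood highest in every replicate with signals of 378 to 497, and the first 4 genes stayed below 50.

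The records at the first steps were weak, and none passed the threshold in all 3 replicates. Pgi encodes glucose-6-phosphate isomerase, which turns glucose-6-phosphate into fructose-6-phosphate (2R:8910900-8914069, minus strand, dm6). Its promoter record had a signal of 30.5 in replicate 1 (rank 3186 of 3404 in the own list) and of 35.9 in replicate 2 (rank 2495 of 2774), and replicate 3 had a ranked record of 14.4 there, below the list threshold. Ald1, the aldolase gene whose product cuts the 6-carbon sugar into triose phosphates (3R:26254069-26261591, minus strand), entered the own list of replicate 3 alone, with a signal of 46.9 at 1 bp into the transcript of its second TSS (rank 1662 of 2716). The ranked lists of the other replicates had 15.6 and 23.8 there, both below the threshold. Both genes therefore stood near the bottom or in the lower part of the lists that held them.

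Pfk, which encodes the phosphofructokinase of the committing step (2R:10109740-10117457, plus strand), was in no own list. The pooled thresholded list had 1 summit in its window, in an intron 730 bp into the transcript of its second TSS, with a signal of 60.2 (rank 5494 of 5976). Tpi, which interconverts the 2 triose phosphates (3R:30132981-30134599, minus strand), was in no thresholded list at all. Its strongest ranked records had signals of 27.8, 14.9 and 11.5 in replicates 1, 2 and 3, all upstream of its first TSS. The pooled thresholded list also took in Pgi with 71.2 and Ald1 with 78.1, which brought it to 8 of the 10 genes, against 37.3% of all protein-coding genes in that list. The bases around these 3 pooled summits were 48.3% G or C at Pgi, 57.2% at Pfk and 53.7% at Ald1, within 100 bp on each side. The median over all main-list summits was 34.8%. At later steps, summits in the pooled but not the main list had 43.3% at Eno and 51.7% at Pyk. The one at Pyk had a signal of 2.2, at rank 5975 of 5976. The median over all summits in the pooled list only was not computed.

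The GAPDH step, which oxidises the triose phosphate and makes NADH, has 2 genes in the fly that encode nearly the same enzyme. The coding sequences of Gapdh2 and Gapdh1 are both 996 bases long in the reference genome and identical at 884 positions, or 88.8%, with a longest shared run of 38 bases. The proteins they encode share 323 of 332 residues, or 97.3%. The 250 bases before the first TSS aligned with 40.9% identity and no shared run longer than 8 bases.

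Gapdh2 (FBgn0001092, X:15868145-15869661, plus strand) had the strongest peak of the pathway. Its main-list peak spanned 15867807 to 15868154 and its summit lay 165 bp upstream of the first TSS, with a signal of 1264 and rank 17 of 4770. In the own lists the signal was 497, 378 and 389 in replicates 1, 2 and 3, at ranks 17, 23 and 12, which gives 422 ± 65.8 (SD, n = 3). The 3 own summits fell within 4 bp of each other. Of the 1756 main peaks found in all 3 own lists, 3.47% had summits that close or closer, and the median range was 35 bp. The protein-coding genes whose promoter peaks ranked most like that of Gapdh2 over the 3 own lists, among 1005 others with a promoter peak in all 3, were the neighbours Chro and Ssl1, which share 1 summit, and the neighbours CenG1A and mRpS23, which share another. Their mean distance from Gapdh2 was 0.18 and 0.182 percentage points of rank. The bases around the main summit of Gapdh2 are shown as they read along the gene (RefSeq copy of dm6, X:15867880-15868080, plus strand), because this is the site the comparison with Gapdh1 turns on. Capitals mark AAATAT or its reverse complement ATATTT, the short sequence earlier found to lead at the summits of these data.
Gapdh2 summit: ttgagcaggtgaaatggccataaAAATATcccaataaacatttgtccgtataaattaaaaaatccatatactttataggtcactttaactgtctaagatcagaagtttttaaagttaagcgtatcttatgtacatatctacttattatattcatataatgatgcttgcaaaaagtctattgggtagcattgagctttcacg

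Gapdh1 (FBgn0001091, 2R:7791901-7793380, minus strand) had no summit in its window in the main, pooled or own thresholded lists. The ranked lists, which also hold records that failed the threshold, had 9, 3 and 5 records in its window in replicates 1, 2 and 3. The strongest of these had signals of 14.9, 21.4 and 24.5, at ranks 22353 of 80383, 7829 of 73730 and 5628 of 70919. The strongest record lay inside the gene in replicates 1 and 2, whereas in replicate 3 it lay past the gene end, 96 bp into the transcript of the neighbour CG12824. No ranked record fell within 500 bp of a Gapdh1 TSS in replicates 1 and 3. In replicate 2 the record of 21.4 did, at 138 bp into the transcript. Read within each replicate, Gapdh2 stood 33.4-, 17.7- and 15.9-fold above the strongest Gapdh1 record in replicates 1, 2 and 3. These folds set a listed peak against records that failed the threshold and lay at different places, so they do not compare the promoters of the genes. The median signals of these ranked lists were 10.3, 10.3 and 9.38. On the log2 scale the ratio of Gapdh2 over Gapdh1 was 5.06, 4.15 and 3.99, with a mean of 4.40 ± 0.58 (SD, n = 3). The difference had the same sign in 3 of 3 replicates and was larger than the spread between them. With 3 replicates of 1 group an exact sign-flip test cannot pass the usual threshold, so none was made.

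**Figure D2:**
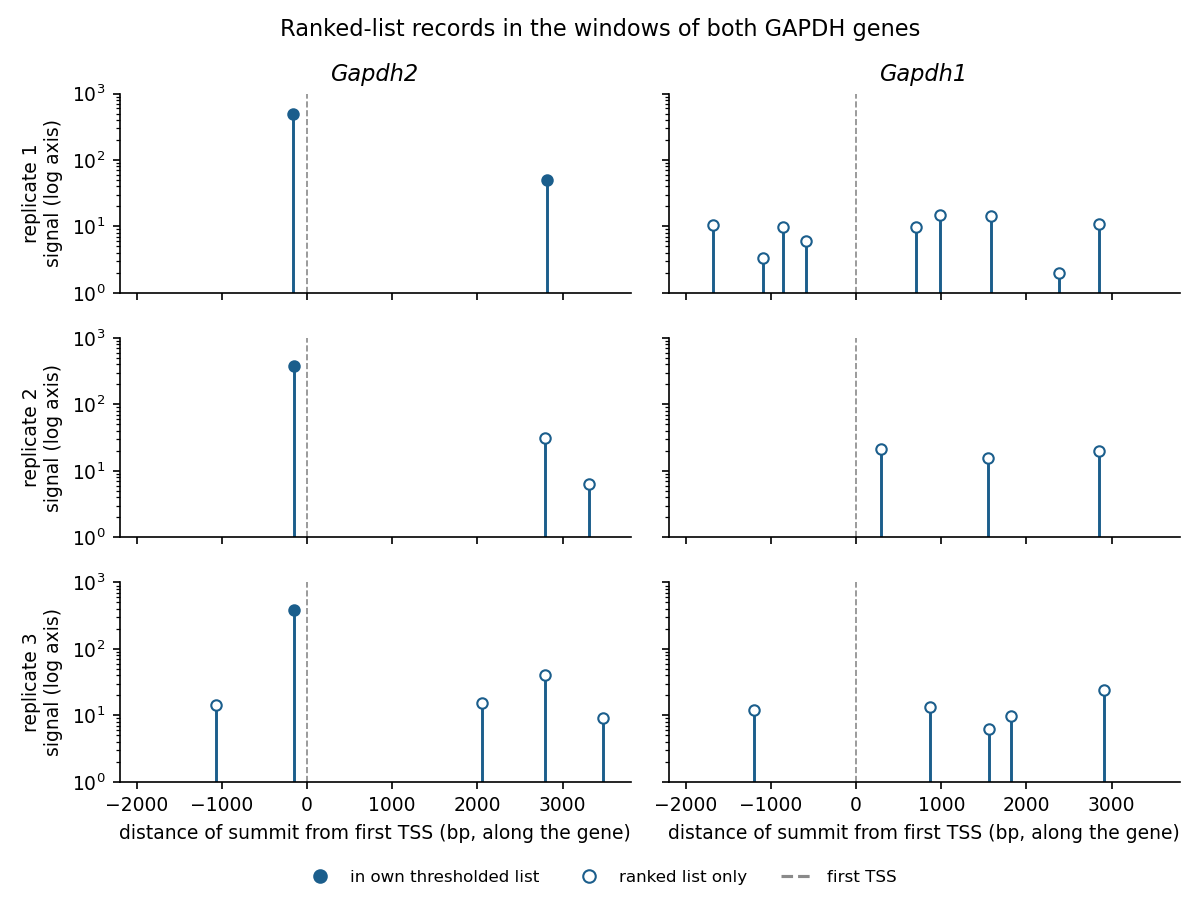
Records of the ranked lists in the windows of Gapdh2 (left) and Gapdh1 (right), with the distance of the summit from the first TSS in bp on the x axis and the authors' signal on a log y axis, 1 row of panels per replicate. The tall record just upstream of Gapdh2 recurs in all 3 replicates, and no record at Gapdh1 exceeds 24.5.

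A second main-list peak counted for Gapdh2 stood 2725 bp from its TSS, past the gene end. Its summit at X 15870936 had a signal of 125 and rank 2266, close to the middle of the list. The nearest TSS was that of the neighbour CG16952, with the summit 753 bp into that transcript. Replicate 1 alone had it in its own list, with a signal of 50.1 at rank 2284 of 3404. The count of Gapdh2 does not rest on it.

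Pgk encodes phosphoglycerate kinase, which makes the first ATP of the pathway (FBgn0250906, 2L:2746880-2753068, minus strand), and has 5 annotated TSSs spread over 4581 bp. Its main-list peak spanned 2748766 to 2748943, in an intron of the longer transcripts. The summit lay 383 bp upstream of the TSS farthest downstream and 443 bp into the transcript Pgk-RE, which starts at the TSS before it. The signal was 308, at rank 513 of 4770. In the own lists the peak had signals of 85.8, 105 and 105 in replicates 1, 2 and 3, at ranks 999, 481 and 387, and a mean of 98.7 ± 11.2 (SD, n = 3). The signals were close but the positions were not: the own summits ranged over 109 bp, and 95.3% of the main peaks found in all 3 own lists had a range that small or smaller. The site was also poor in G and C. Only 20.4% of the bases within 100 bp of the main summit were G or C, and 0.776% of the main-list summits had a share that low or lower.

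Further records at Pgk passed the score threshold without standing in the thresholded list. The ranked list behind the main list had 4895 records with a score of 830 or more, the lowest score in the thresholded lists, and 125 of them (2.55%) were absent from the main list. Of these, 5 lay in the gene windows of the glycolytic genes, all at Pgk, in a stretch of 6006 bp (2L:2748890-2754895) that held no main-list summit. The strongest had a signal of 268 and lay in an intron, 959 bp into the longest Pgk transcript. It was 336 bp upstream of a TSS of Bacc, a gene that has TSSs within Pgk. The next had 163, at 329 bp upstream of the Pgk TSS at 2750147. The third had 146, at 1638 bp upstream of the first Pgk TSS and 1473 bp downstream of its nearest TSS, one of Bacc. The fourth, with 81.7, lay 300 bp into the longest Pgk transcript, within 500 bp of the first Pgk TSS, and 32 bp upstream of another Bacc TSS. The fifth had 16.7.

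The same 3 places recurred in the replicates. The record near the Bacc TSS had signals of 127, 86.7 and 59.2 in replicates 1, 2 and 3, each past the score threshold and each absent from the own list. The record at the internal Pgk TSS had 60, 46.4 and 58.8, and the record upstream of the gene had 58, 52.7 and 40.4. The record nearest to the first Pgk TSS had 26.5, 21.7 and 45.2, and it passed the score threshold in replicate 3 alone. In replicate 1 the absent record of 127 exceeded the 85.8 of the listed Pgk peak, whereas in replicates 2 and 3 the listed peak was the higher. The deposited notes name 1 further source file for the thresholded lists than for the ranked ones, and its part in these gaps was not tested.

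Eno encodes enolase, which makes phosphoenolpyruvate (FBgn0000579, 2L:1724768-1729636, minus strand), and had the second strongest peak of the pathway. The main-list peak spanned 1727767 to 1728046, with a signal of 594 and rank 149 of 4770. Its summit lay in an intron of the longer transcripts, 196 bp upstream of the TSS farthest downstream, from which the transcripts Eno-RA and Eno-RF start. In the own lists the signals were 247, 166 and 167 in replicates 1, 2 and 3, at ranks 130, 186 and 149, with a mean of 193 ± 46.3 (SD, n = 3), and the summits fell within 36 bp. The first TSS of Eno had a weaker record of 82.2 in the pooled thresholded list, 168 bp upstream of it and 83 bp upstream of the neighbour CG31937. The middle TSS had at most a ranked record of 13.7 in the pooled list. Of the 3 start regions of Eno, the one farthest downstream thus had the highest signal in the pooled list and in every replicate.

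Pyk encodes pyruvate kinase, the last enzyme of the chain (FBgn0267385, 3R:22367536-22372746, plus strand). Its main-list peak spanned 22368762 to 22369141 in an intron, with the summit 330 bp upstream of the internal TSS of its shorter transcript, a signal of 126 and rank 2230 of 4770. The own lists of replicates 1 and 2 held it with 59.7 and 47.9, at ranks 1751 of 3404 and 1812 of 2774. In replicate 3 it was a ranked record of 24, below the threshold. The signal over all 3 ranked lists averaged 43.9 ± 18.2 (SD, n = 3), a wider spread relative to its mean than at Gapdh2, Pgk or Eno. At the first TSS of Pyk the ranked records had signals of 12.7, 21 and 22.8 in replicates 1, 2 and 3, so the internal site was the higher one in each replicate, by little in replicate 3.

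**Figure D3:**
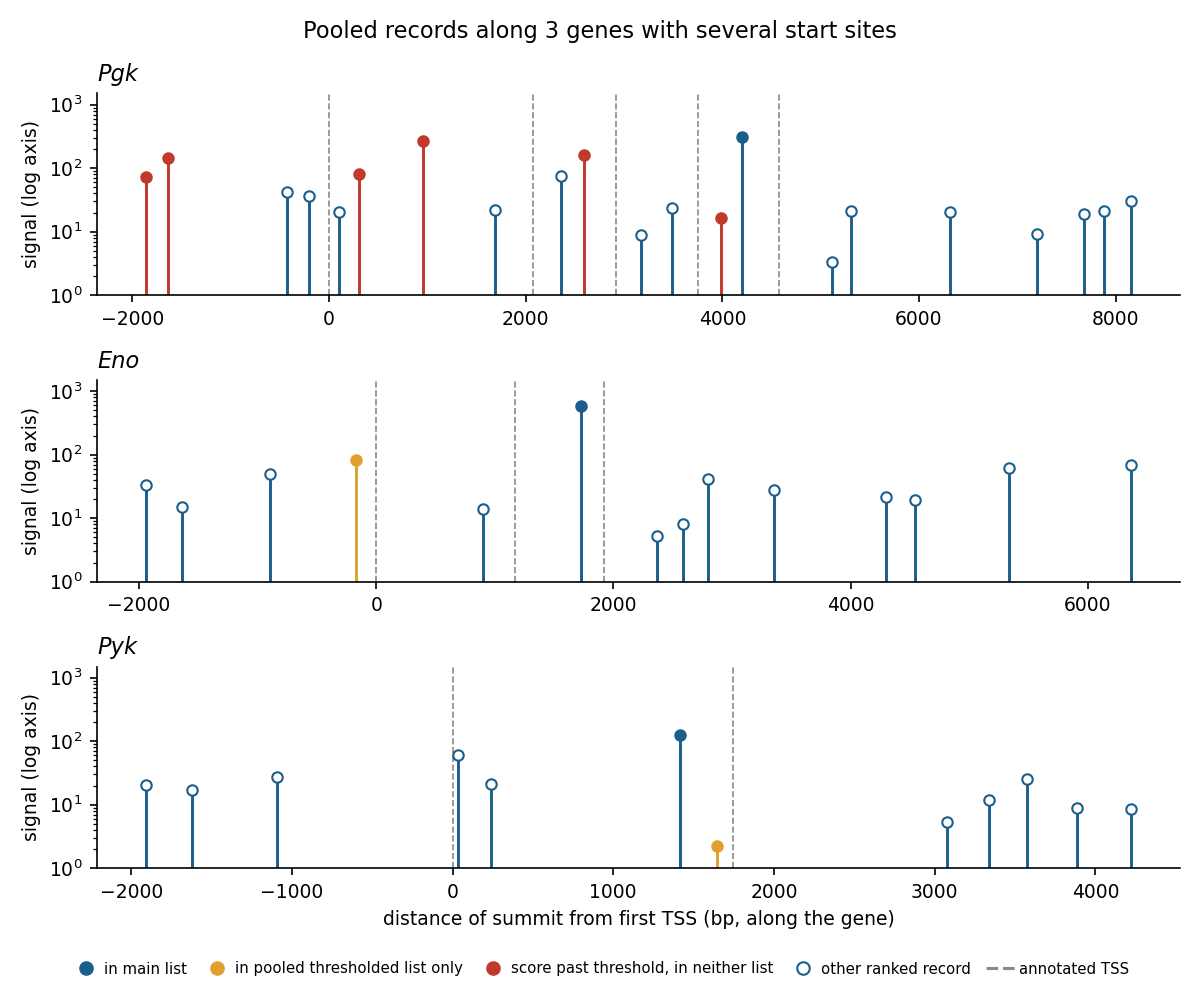
Records of the pooled ranked list along Pgk, Eno and Pyk, with the distance of the summit from the first TSS in bp on the x axis, the authors' signal on a log y axis and annotated TSSs as dashed lines. The main-list peak of each gene stands upstream of its last TSS and not at its first, at Pgk between that TSS and the one before it. Pgk holds further records past the score threshold that are in neither thresholded list.

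At Pgk, Eno and Pyk the main-list promoter peak stood at an internal TSS, and none of the 3 had a main-list summit within 500 bp of its first TSS. Weaker records did lie there, at Pgk the one of 81.7 that passed the score without being listed and at Eno the one of 82.2 in the pooled thresholded list. Gapdh2, whose 2 TSSs lie 66 bp apart, was the only one with a main-list summit at its first. Among all 2257 protein-coding genes with a promoter peak, 15% had it at other TSSs only. Among the 610 of these that had a TSS more than 1000 bp from the first, 49.3% did. The 3 glycolytic genes belong to this smaller class, so peaks at internal TSSs alone were common among genes built like them. All 4 promoter summits lay upstream of the TSS nearest to them, by 165 to 383 bp. At Pgk this rests on the choice of TSS, because the summit also lay 443 bp into the transcript Pgk-RE. In replicate 2 the own summit of Pgk was nearest to the Pgk-RE TSS, 402 bp downstream of it.

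The main-list peak counted for Pglym78, the phosphoglycerate mutase gene (FBgn0014869, 3R:29148248-29149901, plus strand), lay past the gene. It spanned 29151687 to 29152066, with the summit 1976 bp past the gene end and 83 bp upstream of the TSS of eIF2D, a gene for a translation initiation factor. The signal was 184, at rank 1277 of 4770. The position sits at the edge of the window: the own summits of replicates 1 and 3 were 1975 and 1964 bp past the gene end and counted, with signals of 91.9 and 55.1. The own summit of replicate 2, with a signal of 39, was 2005 bp past it and did not count. Near the Pglym78 TSSs themselves only replicate 3 had listed summits, 30 and 256 bp upstream of the first TSS, with signals of 20.7 and 18.8 at ranks 2547 and 2553 of 2716. The second of these lay nearer to the TSS of the neighbour CG11882.

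The remaining summits are printed below as they read along each glycolytic gene, so that the letters they share can be seen. All are from the RefSeq copy of dm6, with capitals for AAATAT or ATATTT as above, and stretches annotated as untranslated exon were left out. They are the second Gapdh2 site (X:15870836-15871036, plus strand), Pgk (2L:2748793-2748970, minus), Eno (2L:1727881-1728013, minus), Pglym78 at the eIF2D start (3R:29151795-29151977, plus) and Pyk (3R:22368852-22369052, plus).
Gapdh2 site past the gene: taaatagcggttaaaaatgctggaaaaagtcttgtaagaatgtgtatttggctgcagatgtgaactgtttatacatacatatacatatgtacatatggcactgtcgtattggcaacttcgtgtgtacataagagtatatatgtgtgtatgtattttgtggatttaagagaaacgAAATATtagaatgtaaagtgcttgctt
Pgk summit: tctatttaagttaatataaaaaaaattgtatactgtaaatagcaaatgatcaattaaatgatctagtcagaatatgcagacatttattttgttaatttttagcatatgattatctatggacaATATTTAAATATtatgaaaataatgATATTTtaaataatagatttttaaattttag
Eno summit: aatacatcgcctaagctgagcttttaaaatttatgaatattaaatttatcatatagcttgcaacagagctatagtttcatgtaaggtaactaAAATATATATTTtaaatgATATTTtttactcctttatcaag
Pglym78 site at eIF2D: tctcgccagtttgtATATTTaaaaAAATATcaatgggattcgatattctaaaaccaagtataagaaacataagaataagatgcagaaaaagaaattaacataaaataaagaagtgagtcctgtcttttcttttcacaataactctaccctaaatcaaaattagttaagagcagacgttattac
Pyk summit: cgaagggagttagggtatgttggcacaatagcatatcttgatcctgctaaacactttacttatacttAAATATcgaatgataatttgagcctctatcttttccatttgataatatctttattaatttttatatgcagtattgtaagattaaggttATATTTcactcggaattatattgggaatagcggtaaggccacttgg

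AAATAT, searched on both strands within 100 bp of the summit, was present at 6 of the 6 main-list summits of the glycolytic genes, against 50.5% of all main-list summits. These 6 summits had 20.4% to 32.3% G or C, and shares among the 1851 main-list summits with 32.3% or less are therefore given as well. For AAATAT that share was 69.6%, higher than over all main-list summits. TATAAA, the core of the TATA box, was present at 4 of the 6, against 36.1% of all main-list summits and 52.5% of those low in G and C. TCGATA, the core of the DNA replication-related element, was at 2 of the 6, against 9.31% and 9.56%. AAGGTCA, the short sequence bound by ERR, was at 0 of the 6, against 1.55% and 2.22%. ACGTG, the core of the hypoxia response element, was at 0 of the 6, against 13.2% and 9.08%. GAGAG was at 0 of the 6, against 24.1% and 13.9%, and CAGTG at 1 of the 6, against 44.8% and 37.1%. A match shows only that the letters are present, and with 6 summits these counts are a description. AAATAT and CAGTG were taken from earlier work on these same data, so their counts are not independent of that work.

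The same motifs were searched from 250 bases before to 50 bases after the first TSS of each gene. AAATAT was in 5 of the 10 glycolytic promoters, against 53.8% of all 13945, and TATAAA in 4 of the 10, against 45.9%. TCGATA was in 3 of the 10, against 27.7%, GAGAG in 3 of the 10, against 29.8%, and CAGTG in 4 of the 10, against 46.3%. These 5 counts were near the shares of all promoters. AAGGTCA was in the Pglym78 promoter alone, against 2.11% of all promoters, and ACGTG in the Gapdh2 promoter alone, against 23.3%.

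Genes of neighbouring pathways were counted from 6 lists that together held 73 annotated genes. In the main list 37 of the 73 (50.7%) had a summit in the gene window, against the 32.1% of all protein-coding genes given above, and 19 (26%) had a promoter peak, against 16.2%. A promoter peak in all 3 own lists was found at 9 of the 73 genes, against 7.21%. The lists held 7 to 23 genes each, so 1 gene moves a share by much, and differences among the lists were not tested. Sugar stores and uptake had a promoter peak at 5 of 12 genes, lactate, glycerol phosphate and gluconeogenesis at 4 of 11, and the pentose phosphate pathway at 2 of 7. Pyruvate entry and the tricarboxylic acid cycle had one at 5 of 23 genes, regulators of glycolytic genes at 2 of 8, and the hexokinases and other isozymes of the glycolytic steps at 1 of 12.

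**Figure D4:**
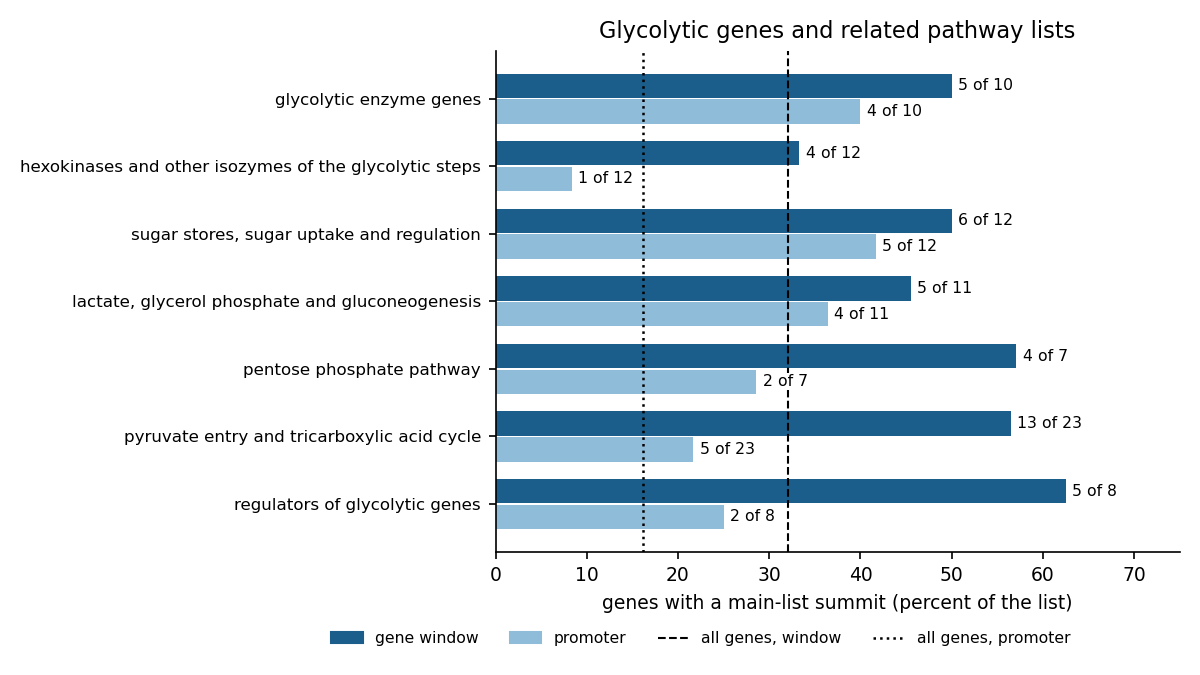
Share of genes with a main-list summit in the gene window (dark bars) or in a promoter (light bars) for the glycolytic genes and 6 related lists, in percent, with counts beside the bars and the shares of all protein-coding genes as a dashed line for windows (32.1%) and a dotted line for promoters (16.2%). The glycolytic genes stand at 5 and 4 of 10. The isozyme list is the one whose promoter share lies below that of all genes, with a count of 1 of 12 that is too small to tell them apart.

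Several genes next to the chain had promoter peaks of a strength between those of Eno and Pyk. Ldh, lactate dehydrogenase, had a summit 204 bp upstream of its TSS with a signal of 417 and rank 304. Hex-A, which encodes a hexokinase that feeds the chain, had 463 and rank 240, with the summit 189 bp upstream of its TSS. Glyp, glycogen phosphorylase, had 499 and rank 203, at 179 bp upstream. All 3 genes were in the own list of every replicate, and their summits lay upstream of the TSS by distances like that of Gapdh2. Not all weaker promoter peaks in these lists lay so. The summit of Gpdh1, with a signal of 134, lay 28 bp into the transcript, and that of Rpe, with 98.6, lay 45 bp into it. Each of these was in 2 own lists. Other high values in these lists belonged to neighbours. The summit in the window of Hex-C had a signal of 1473 and rank 6, but it lay 2571 bp from the Hex-C TSS and 141 bp upstream of that of mRpL41, a mitochondrial ribosomal protein gene. The summit in the window of the isozyme gene CG12229 (signal 523, rank 180) lay 107 bp upstream of the TSS of CG32176.

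In the other lists, CG8036, a transketolase gene of the pentose phosphate pathway, had a summit with a signal of 635 at rank 127, 262 bp upstream of one of its TSSs and 182 bp upstream of a tyrosine tRNA gene. Zw, glucose-6-phosphate dehydrogenase, had 188 at rank 1239, in an intron 1110 bp upstream of its nearest TSS. Idh3g, a subunit of isocitrate dehydrogenase, had 616 at rank 134, 100 bp upstream of its TSS. Pgm1, phosphoglucomutase, had 144 at rank 1863, and Glys, glycogen synthase, had 180 at rank 1330, both within 500 bp of their own TSSs. Among the regulators, sima, which encodes the fly hypoxia-inducible factor, had its highest summit in an intron with a signal of 245 at rank 803, 1616 bp upstream of the nearest sima TSS. None of the 8 regulators had a promoter peak in all 3 own lists, against 7.21% of all protein-coding genes. With 8 genes, a count of 0 is near that share.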

How the data were processed

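ChIP-seq peak lists of 3 biological replicates were used, all of 1 group. Per the labels the assembly was dm6. The tools for alignment and peak calling are not given in the sources at hand. The authors kept peaks by irreproducible discovery rate (IDR), a measure of how well the ranks of peaks repeat between a pair of sets. The deposited signal of a peak has no stated scale. The deposited score is scaled from the global IDR, with a minimum of 830 in the thresholded lists. The deposited ranked lists also hold the global IDR as −log10. By identical records, the main list compared the ranks of replicates 1 and 3, while its peaks and signals are those of the pooled list. Read depth is unknown, so no counting interval is given.

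Ranks, distances and counts were computed in Python 3.11.15 with numpy 2.4.6, biopython 1.88 and matplotlib 3.10.9, with 1 record per summit and 1-based coordinates. Gene models and TSSs were those of Ensembl release 115 (BDGP6.54) and bases from the RefSeq genome of that assembly, and no peak or gene ended beyond its arm. Pyk is spelled PyK in the annotation and was matched to that spelling. Repetition meant an overlap of 1 bp or more with a peak of an own list. The counting functions were tested on simulated data. The glycolytic genes and the pathway lists were chosen with earlier results of these data known. Named genes were all 10 glycolytic genes, up to 4 genes per pathway list by highest signal among those with a main-list summit, the gene nearest to a summit where it was another one, and up to 4 genes ranking most like Gapdh2. Listed symbols without a match in the annotation were left out of the counts. Alternatives were other lists, a global IDR of 0.001, merged summits, other windows and leaving out each replicate.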

Additional observations from a re-analysis of the deposited data

Results flagged for a closer look

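Signal past the score threshold stood outside the thresholded main list at Pgk, in the ranked list that the counts of peaks do not use. The 3 strongest such records had signals of 268 (959 bp into the longest Pgk transcript, 336 bp upstream of a Bacc TSS), 163 (329 bp upstream of an internal Pgk TSS) and 146 (1638 bp upstream of the first Pgk TSS, 1473 bp downstream of a Bacc TSS). Each recurred in the ranked list of every replicate. No control library was analysed here, so they were not set against a control level.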

How the results depend on the processing

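Of 74 values recomputed under alternatives, 66 were counted as the same, by a rule of 1.5 times or the spread between replicates, and 8 as moved. Those counted as the same include the GAPDH difference by rank, which is in percentage points and cannot be set against a log2 ratio. They also include GAPDH ratios of 4.56 from series-level lists, which share the pooled signals and so could not differ from each other. The glycolytic genes with a summit in their window numbered 8 in the pooled thresholded list (37.3% of all protein-coding genes there) and 3 (Pgk, Eno and Pyk) with no flank around the gene (12.9% of all genes), against 5 in the main list. Promoter peaks were at 2 of them (Gapdh2 and Eno) within 250 bp of a TSS (12.6% of all genes), against 4. All protein-coding genes with a promoter peak numbered 1430 at a global IDR of 0.001 or less, against 2257. In that stricter list, which is shorter, Gapdh2 stood in the top 0.641%, Eno in the top 5.62% and Pgk in the top 19.4%, against 0.356%, 3.12% and 10.8%. Pglym78 went from the top 26.8% to the top 48.1%, though it was counted as the same. In the ranked lists, which hold 70919 to 80383 records per replicate, 10 of the 10 genes had a record in every replicate. The share of all protein-coding genes with such a record was not computed, so this count is not a result about the glycolytic genes. With other pairs of replicates in the rank comparison, 6 of the 10 had a window summit and 5 a promoter peak (Pgi was added with replicates 1 and 2, Ald1 with replicates 2 and 3), and 4015 to 4363 of all genes a window summit and 1957 to 2137 a promoter peak. Leaving out each replicate gave a mean of 5 to 5.5 genes in the own lists, a log2 ratio of Gapdh2 over Gapdh1 of 4.07 to 4.61 and a mean Gapdh2 signal of 384 to 443. By rank, the strongest Gapdh1 record stood 15.4 ± 10.8 percentage points below Gapdh2 (SD, n = 3), and 9.25 points without replicate 1. With the records absent from the main list added back, an alternative chosen after seeing the data, the counts stayed at 5 and 4. They could not have changed, because all 5 such records in the gene windows lay at Pgk, which already counted in both. What changes is that Pgk then has a summit within 500 bp of its first TSS, the record of 81.7. The ratio of the GAPDH pair has no value in thresholded lists, where Gapdh1 has no peak. No paired analysis was possible because there is only 1 group, so no replicate pairs samples across groups; the GAPDH ratio is taken within each replicate. Depth is unknown, so a gene with no listed peak is not shown to lack a site.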
